A study of Mus musculus with 15 samples.

Results

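Gene expression in O4AID ESCs was compared between 24 h of IAA and 0 h. The comparison uses 2 RNA sequencing libraries, 1 at each time, of the 15 in the series. Both are from mouse embryonic stem cells (ESCs) of strain 129SV that are Oct4-/- and carry 3 transgenes, TetOFF Oct4 (wild-type), CAG Oct4AID and CAG Tir1. These cells were made from the ZHBTc4 ESC line by piggyBac transfection of *Oct4* fused to an auxin-inducible degron (AID) and of *Tir1*, each driven by the constitutive CAG promoter. Whether the O4AID line is a single clone is not given in the sources used here. Both libraries come from cells held in 1 µg/ml doxycycline, which silences the wild-type *Oct4* transgene, in N2B27 medium with the MEK inhibitor PD03 (1 µM), the GSK3 inhibitor Chiron (3 µM) and LIF. The 24 h cells also received 500 µM IAA and the 0 h cells none. The other O4AID libraries, at 1.5, 6 and 10 h of IAA, are given as values only, and the other 10 libraries of the series are from CreER ESCs.

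OCT4, encoded by *Pou5f1*, is a POU-family transcription factor that sits at the centre of the network that keeps ESCs pluripotent, together with SOX2 and NANOG. In the degron system the plant F-box protein TIR1 binds the AID tag when the auxin IAA is present, and the tagged protein is then ubiquitinated and degraded. In the embryo, OCT4 is needed for the inner cell mass to keep its identity, and ESCs that lose it are known to take on features of trophectoderm, the outer epithelium of the blastocyst that builds the placenta. The question behind the comparison was what had become of the transcriptome a day after the protein was removed.

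The 0 h library held 48719670 counted reads and the 24 h library 46363296. Values are counts per mega-count (CPM) of the TMM-scaled library total, and differences are log2 ratios of 24 h over 0 h. Each ratio carries an exact conditional binomial 95% interval, which covers counting error only. With 1 library a side there is no replicate error and no p-value, so every difference is between these 2 libraries. A gene is said to have risen or fallen where it differed at least 2-fold and had a mean of at least 20 counts over both libraries, which 15890 genes had. Those genes took 99.9% of the reads in each library. IAA, time in culture and the loss of OCT4 all differ between the libraries, and no library with IAA but without the degron target was analysed here, so these cannot be told apart.

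*Pou5f1* mRNA, the transcript of the targeted protein, was close to its starting level. *Pou5f1* (ENSMUSG00000024406, chr17:35506018-35510772, plus strand, GRCm38) had 33610 counts at 0 h and 28995 at 24 h, or 717 and 601 CPM. The log2 ratio was -0.25 (95% interval -0.28 to -0.23), which is short of 2-fold. IAA acts on the protein, and counts per gene do not separate the degron-tagged transgene from the silenced transgene or the endogenous locus, so the mRNA is no measure of OCT4 protein and does not check the treatment label.

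At 24 h, 1342 genes had risen (8.45% of the 15890) and 984 had fallen (6.19%). In all, 14.6% of genes stood at least 2-fold apart, and 57.7% of those were higher at 24 h. At least 4-fold, 360 genes were higher and 238 lower, and at least 8-fold, 111 were higher and 70 lower. The median log2 ratio over all genes was -0.02, with quartiles at -0.36 and 0.36. For scale, the 2 replicate libraries of each CreER time differed at least 2-fold at 36 to 76 genes, or 0.227% to 0.48% of those measured by the same rule. That is another line at lower depth (21.7 to 30.8 M reads), so it describes the rule and is not an error for O4AID. The threshold falls inside a continuous spread, with *Irf1* at 1.00 just inside and *Bace1* just outside on the higher side, and *Gm3020* just inside and *Ulk1* just outside on the lower side.

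Genes that rose or fell were mostly low in level. Those that rose had a median of 1.13 CPM at 0 h and 3.66 at 24 h, and those that fell 3.78 and 1.24. The median of all genes at 0 h was 16.8 CPM, and the rule for a rise itself favours a low level at 0 h. In the lowest quartile of mean level, 713 of 3973 genes were higher and 510 lower. In the highest quartile these were 55 and 95 of 3973. Protein-coding genes leaned to the higher side, with 1211 of 13598 risen and 737 fallen. Pseudogenes leaned the other way, with 23 of 772 risen and 99 fallen, and a median log2 ratio of -0.44. Many of them are copies of other genes, where reads may be shared. Genes in the shortest quartile of length had a median of -0.18, and those in the longest quartile 0.04. The mitochondrial ribosomal RNA *mt-Rnr2* took 5.81% of reads at 0 h and 8.78% at 24 h. CT010467.1, annotated as ribosomal RNA and singled out after its value was seen, went the other way, from 4642 to 939.8 CPM (log2 ratio -2.30). The part of these RNAs in the ratios of other genes was not tested. Scaling by total counts alone moved the median of all genes from -0.02 to 0.09.

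**Figure D1:**
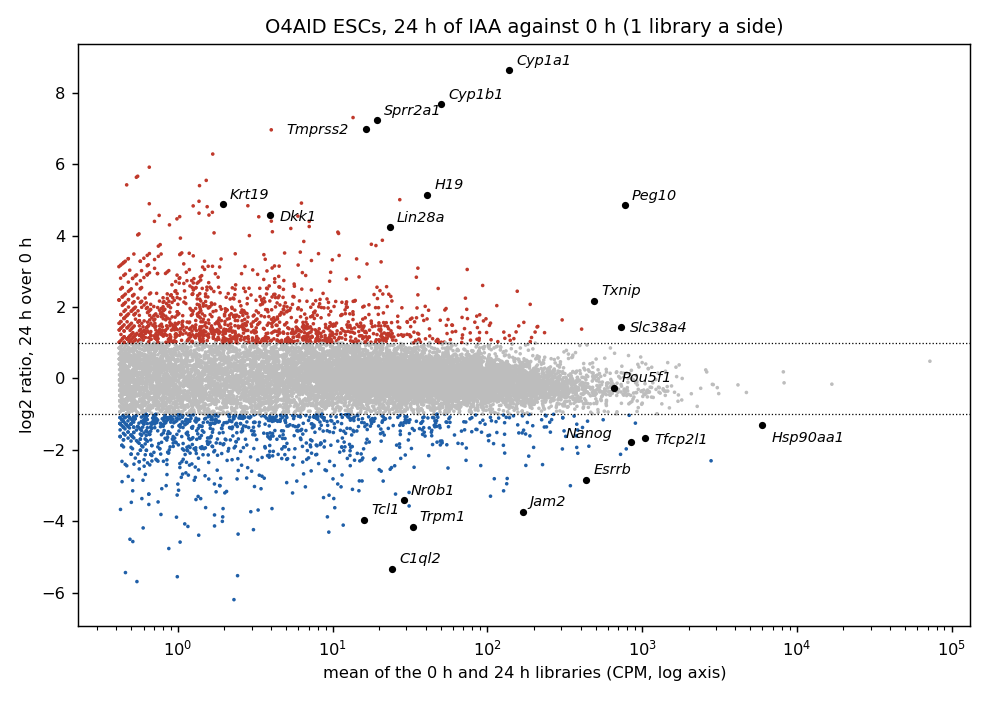
Log2 ratio of 24 h over 0 h for 15890 genes (vertical axis) against the mean CPM of both libraries (log axis), 1 point per gene, with red points at least 2-fold higher, blue points at least 2-fold lower and dotted lines at 2-fold. *Cyp1a1* stands highest at 8.62, *Peg10* combines a high level with a log2 ratio of 4.85, and *Pou5f1* lies between the dotted lines at -0.25.

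The naive pluripotency factors fell together. Of 18 naive transcription factors, 14 fell and none rose, with a median log2 ratio of -1.69 against -0.02 for all genes. Every one had an interval below 0, as did 6080 of all 15890 genes. Both this list and the trophectoderm list include genes that the study picked from these libraries, so they are not independent evidence of direction. The summed level of the list was 5462 CPM at 0 h and 1625 at 24 h. *Nr0b1*, an orphan nuclear receptor of the ESC network, showed the largest ratio of the list, from 2460 counts (52.5 CPM) at 0 h to 238 (4.94 CPM) at 24 h. That is a log2 ratio of -3.41 (-3.61 to -3.22), and the 6 h library already stood at 17.2 CPM. *Esrrb*, the oestrogen-related receptor that can stand in for NANOG in self-renewal, went from 763 to 107 CPM (log2 ratio -2.83, interval -2.87 to -2.79). *Klf4*, a Krüppel-like factor and reprogramming factor, went from 153 to 28.3 CPM, a log2 ratio of -2.44 (-2.52 to -2.35).

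The core partners of OCT4 were lower but still present at 24 h. *Nanog* had 61111 counts at 0 h and 18418 at 24 h, or 1304 and 382 CPM, a log2 ratio of -1.77 (-1.80 to -1.75). In the libraries between them it stood at 1215, 837 and 740.3 CPM. *Sox2*, whose protein pairs with OCT4 on composite sites, went from 315 to 82.8 CPM, a log2 ratio of -1.93 (-1.98 to -1.88), and stood at 212 CPM at 10 h. *Tfcp2l1*, a naive factor downstream of LIF and GSK3 inhibition, was among the 5 largest losses in CPM, from 1598 to 501, a log2 ratio of -1.67. *Tbx3* and *Klf2* differed from these in timing. *Tbx3* stood at 182 CPM at 0 h, 78.2 at 6 h and 77.0 at 24 h, and *Klf2* at 67.5, 29.7 and 26.6 CPM, so both held at 24 h about the level of 6 h.

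The 4 naive factors short of 2-fold were *Zscan10* (log2 ratio -0.97), *Sall4* (-0.86), *Klf5* (-0.65) and *Nr5a2* (-0.49). *Sall4*, a zinc finger factor, was at 301 CPM at 0 h, 159 at 6 h and 166 at 24 h. *Nr5a2*, a nuclear receptor that can replace OCT4 in reprogramming, was at 102 CPM at 0 h and 72.4 at 24 h. *Zfp42* (REX1), the usual reporter of the naive state, went from 383 to 72.0 CPM, a log2 ratio of -2.41 (-2.46 to -2.36). Its promoter is shown because it is the only promoter among those found for the naive list (16 promoters of 13 genes) that holds the octamer ATGCAAAT, the letters that POU factors such as OCT4 recognise. The octamer was searched on both strands in RefSeq promoters (250 bases before to 50 after the start, GRCm38.p6, the build of the count files), where it stands in 1.74% of all 32851. In the sequence, which lies at chr8:43306960-43307259 on the minus strand and is written 5′ to 3′, capitals mark the octamer (read here as its reverse complement ATTTGCAT) and, further on, the letters CACGC taken up with the AhR genes.
Zfp42: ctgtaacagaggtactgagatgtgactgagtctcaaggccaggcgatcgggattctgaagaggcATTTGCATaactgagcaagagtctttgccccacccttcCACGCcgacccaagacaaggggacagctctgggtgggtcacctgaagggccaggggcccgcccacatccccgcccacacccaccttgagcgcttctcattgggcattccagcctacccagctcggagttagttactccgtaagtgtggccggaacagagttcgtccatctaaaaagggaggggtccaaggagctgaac

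Other genes restricted to ESCs, which include signalling proteins, enzymes and chromatin factors, mostly fell too. Of 18 such genes, 15 fell and 1 rose, and the median log2 ratio was -1.88. *Tcl1*, a coactivator of AKT, went from 1403 counts to 93, or 29.95 to 1.93 CPM, a log2 ratio of -3.96 (-4.28 to -3.65). *Jam2*, a junctional adhesion molecule, went from 14729 counts to 1140, or 314 to 23.6 CPM (log2 ratio -3.73), by way of 111 CPM at 6 h and 48.9 at 10 h. *Fgf4*, the growth factor that ESCs make to drive their own ERK signalling and a textbook OCT4-SOX2 target, went from 229 to 25.9 CPM, a log2 ratio of -3.15 (-3.23 to -3.06). *Utf1*, another gene with a known OCT4-SOX2 enhancer, had 225 counts at 0 h and 41 at 24 h, a log2 ratio of -2.50 (-3.01 to -2.01). *Dppa5a*, *Tdh* and *Gdf3* fell by 1.97, 1.74 and 1.78 on the log2 scale.

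The exceptions in this list differ in direction. *Lin28a*, an RNA-binding protein that blocks let-7 maturation, had 111 counts at 0 h and 2140 at 24 h, or 2.37 and 44.4 CPM. It rose by a log2 ratio of 4.23 (3.95 to 4.52), passing 4.77 CPM at 6 h and 11.9 at 10 h. *Tex19.1*, which restrains retrotransposons, was at 79.3 and 84.1 CPM (log2 ratio 0.09), with its highest value at 6 h (125 CPM). *Dppa2* was at 65.1 and 54.4 CPM, a log2 ratio of -0.26, while its partner *Dppa4* went from 52.9 to 25.1 CPM, a log2 ratio of -1.08 (-1.18 to -0.98) whose interval crosses 2-fold.

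**Figure D2:**
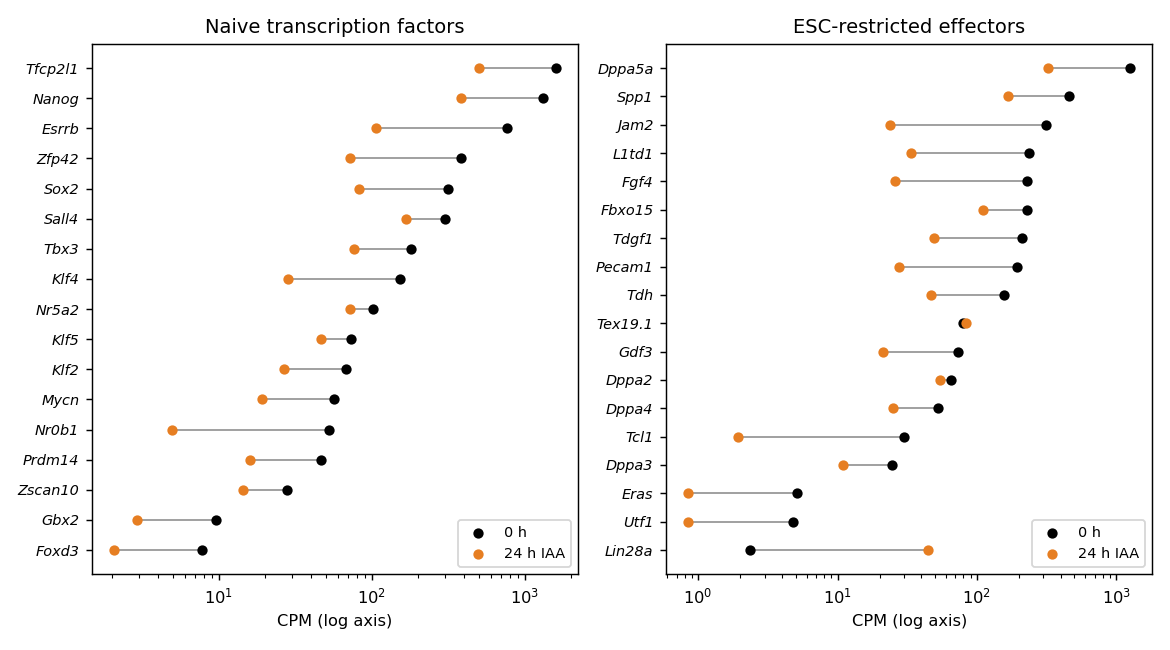
CPM (log axis) at 0 h (black) and at 24 h of IAA (orange) for naive transcription factors and ESC-restricted effectors, 1 library a point, with no correction for gene length. Orange lies left of black for every naive factor drawn, and for the effectors *Lin28a* is the gene that lies far to the other side, at 2.37 CPM at 0 h and 44.4 CPM at 24 h.

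Of 12 formative and primed epiblast genes, which mark the next embryonic stage, 8 were measured. Of these 0 rose and 3 fell, with a median log2 ratio of -0.51, where 8.45% of all genes rose and 6.19% fell. With so few genes, 0 risen is near the share of all genes. *Otx2*, which leads the move from naive to formative pluripotency, had 219 counts at 0 h and 109 at 24 h, a log2 ratio of -1.05 (-1.39 to -0.71). *Zic5* went from 25.6 to 7.32 CPM (log2 ratio -1.81) and *Sox11* from 75 counts to 25 (-1.63). *Fgf5*, the usual marker of the primed state, had 0 counts in both libraries. The de novo methyltransferases *Dnmt3a* and *Dnmt3b* were at 56.0 and 94.1 CPM at 0 h and 73.5 and 113 CPM at 24 h, with log2 ratios of 0.39 and 0.27.

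Trophectoderm transcription factors mostly moved up from low levels. Of 15, 14 were measured, of which 8 rose and 1 fell, with a median log2 ratio of 1.48. With 1 added to CPM before the log, or with a minimum of 100 counts, 3 rose. *Gcm1*, the factor of the syncytiotrophoblast, had 4 counts at 0 h and 46 at 24 h, a log2 ratio of 3.48 whose interval runs from 2.03 to 5.42. *Gata2* had 39 counts and 323, or 0.832 and 6.70 CPM, a log2 ratio of 3.01 (2.53 to 3.53). *Hand1*, needed for giant cells, had 14 and 73 counts (log2 ratio 2.34, 1.50 to 3.28), and *Esx1*, an X-linked placental homeobox gene, had 117 and 538 (2.16, 1.87 to 2.46). *Cdx2*, the homeobox gene that sets up the trophectoderm against OCT4, had 42 and 133 counts, or 0.897 and 2.76 CPM, a log2 ratio of 1.62 (1.11 to 2.16). *Gata3* had 55 and 143 counts, a log2 ratio of 1.34 (0.88 to 1.81). *Msx2* and *Dlx3* rose by log2 ratios of 1.75 and 1.90, and *Dlx3* was already at 1.23 CPM at 6 h against 0.277 at 0 h.

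The factors of this list with the highest levels at 0 h did not rise, and some low ones did not either. *Tead4*, the DNA-binding partner of YAP upstream of *Cdx2*, went from 49.3 to 18.0 CPM, a log2 ratio of -1.45 (-1.57 to -1.34). *Tfap2c* was at 86.4 and 77.3 CPM (log2 ratio -0.16), *Ets2* at 48.1 and 28.8 (-0.74) and *Eomes* at 7.71 and 8.11 (0.07). Of the low ones, *Tfap2a* had 79 and 55 counts (-0.56, -1.09 to -0.05) and *Ascl2* 34 and 39 (0.16, -0.54 to 0.86). *Elf5*, which locks in trophoblast stem cell fate, had 9 and 12 counts and was under the minimum. So the list as a whole had a lower summed level at 24 h (167 CPM) than at 0 h (202 CPM), while its median log2 ratio was above 0.

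The keratins of simple epithelia, which trophectoderm is first to make in the embryo, rose in every measured case, 4 of 4. *Krt19* had 6 counts at 0 h and 182 at 24 h, a log2 ratio of 4.88 (3.73 to 6.35). *Krt7* had 21 and 372 counts (log2 ratio 4.11, 3.47 to 4.81). *Krt18* was at 5.64 and 33.1 CPM (2.55), and its partner *Krt8* at 8.97 and 36.2 CPM (2.01). At 6 h *Krt8* was at 12.2 CPM and *Krt18* at 9.71. *Krt20* had 1 and 2 counts.

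Junction and transport genes of the epithelium moved less as a group. Of 14, 5 rose and none fell, and the median log2 ratio was 0.44. *Cldn6* rose from 6.45 to 38.2 CPM, a log2 ratio of 2.57 (2.39 to 2.75), and the claudins *Cldn4* and *Cldn3* by 1.26 and 1.07. *Aqp8*, a water channel, had 19 counts and 100, a log2 ratio of 2.35. *F11r* (JAM-A), the adhesion molecule of tight junctions, went from 35.5 to 113 CPM, a log2 ratio of 1.68 (1.60 to 1.76), and its level at 10 h was 45.7 CPM. Its relative *Jam2* fell, as given above. *Atp1b1*, a subunit of the sodium pump, was at 147 and 114 CPM (-0.37), and *Aqp3* was at 100.2 and 54.6 CPM.

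Genes of mature trophoblast were mostly under the count minimum. Of 12 trophoblast effectors, 5 were measured and 2 of them rose, against 4 with a minimum of 5 counts. *Peg10*, an imprinted gene of retrotransposon origin that the placenta needs, had 2416 counts at 0 h and 71759 at 24 h, or 51.6 and 1488 CPM. The log2 ratio was 4.85 (4.79 to 4.91), and the libraries between stood at 51.3, 119 and 274 CPM. *Fgfr2*, the receptor for trophoblast-sustaining FGF4, went from 6.38 to 12.9 CPM, a log2 ratio of 1.02 (0.81 to 1.22) at the edge of the threshold, and was higher at 10 h (18.2 CPM). *Mmp9* had 23 and 47 counts, a log2 ratio of 0.99 (0.24 to 1.78). *Tpbpa*, *Prl3d1* and *Prl3b1*, which mark spongiotrophoblast and giant cells, had 0 counts in both libraries. *Plac1*, a placental gene under the minimum, had 3 counts at 0 h and 26 at 24 h (3.07, 1.37 to 5.44), and the syncytins *Syna* and *Synb* had 2 and 3 counts at 0 h and 7 and 9 at 24 h.

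Primitive endoderm genes also moved up, by way of the matrix proteins and a subset of factors. Of 17, 11 were measured, 7 rose and none fell, with a median log2 ratio of 1.55. *Dab2*, an endocytic adaptor, had 46 counts at 0 h and 549 at 24 h, a log2 ratio of 3.54 (3.10 to 4.00). *Pdgfra*, the receptor that marks the lineage, had 53 and 353 (2.69, 2.27 to 3.14). *Gata6*, which specifies it, had 213 and 968, or 4.55 and 20.1 CPM, a log2 ratio of 2.14 (1.93 to 2.36). *Gata4* was at 2.99 and 3.22 CPM (log2 ratio 0.11, -0.23 to 0.45) and *Sox7* had 1 and 2 counts. The basement membrane genes *Col4a1* (53.4 and 156 CPM), *Col4a2* (32.2 and 105) and *Lamb1* (73.9 and 182) rose by log2 ratios of 1.55, 1.71 and 1.30, and *Lama1* was at 244 and 147 CPM (-0.74). *Ttr* had 0 counts in both libraries.

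Markers of the cells the dish could hold were read in both libraries. The ESC and trophectoderm markers include genes that the study picked from these libraries, so their direction is no independent check of the labels. All 10 ESC markers were present at 0 h, at 153 to 1598 CPM, and their summed level was 6516 CPM at 0 h and 1736 at 24 h, with 9 of 10 fallen. The 6 trophectoderm markers (*Cdx2*, *Gata3*, *Hand1*, *Krt7*, *Krt8* and *Krt18*) summed to 17.4 and 84.2 CPM, with 6 of 6 risen. They are a choice from the longer lists above, where 8 of 14 measured trophectoderm factors rose and 1 fell. The 4 primitive endoderm markers summed to 7.83 and 24.2 CPM, with 2 risen. The 4 fibroblast markers summed to 4.76 and 2.43 CPM, with 1 risen (*Col1a2*) and 1 fallen (*Col1a1*). *Col3a1* had 1 count at 0 h and 0 at 24 h, which allows up to 3. The 3 neural markers summed to 51.6 and 69.6 CPM, with 1 risen (*Pax6*) and 1 fallen (*Sox1*). Most of both sums was *Nes*, at 39.5 and 55.5 CPM and short of 2-fold. In bulk RNA, more cells of a type and more RNA per cell cannot be told apart.

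Other lineages showed no common direction. Of 10 primitive streak genes, 5 were measured, with *Kdr* (116 and 39 counts, log2 ratio -1.61) the one that fell, and *T* had 29 and 21 counts. Among neural genes, 5 of 10 were measured. *Sox1* fell from 396 counts to 86 (log2 ratio -2.24, -2.60 to -1.90) and *Tubb3* from 616 to 179 (-1.82), whereas *Pax6* rose from 169 to 593 (1.77, 1.52 to 2.02). *Tubb3* had been higher at 6 and 10 h, at 29.8 and 31.1 CPM against 13.1 at 0 h and 3.71 at 24 h. Of 8 fibroblast genes 4 were measured, among them *Col1a1* at 162 and 34 counts (-2.29) and *Col1a2* at 16 and 45 (1.45). *Thy1* had 44 and 38 counts (-0.25), and *Pdgfrb*, the highest of the list, was at 37.6 and 36.0 CPM (-0.06).

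The largest rises of the comparison were outside these lineages. *Cyp1a1* (ENSMUSG00000032315, chr9:57697613-57703822, plus strand), a cytochrome P450 that oxidises aromatic compounds, had 33 counts at 0 h and 13365 at 24 h, or 0.704 and 277 CPM. The log2 ratio was 8.62 (8.13 to 9.16), a 394-fold difference. It was at 10.7 CPM at 1.5 h, 74.1 at 6 h and 170.3 at 10 h, so the libraries stand in order of time. *Cyp1b1* (ENSMUSG00000024087, chr17:79706953-79715041, minus strand), its relative, had 23 and 4812 counts, or 0.491 and 99.8 CPM, a log2 ratio of 7.67 (7.08 to 8.33), and stood at 0.918 CPM at 1.5 h. Both belong to the battery of the aryl hydrocarbon receptor (AhR), a transcription factor that small aromatic ligands activate and that binds the core letters GCGTG together with ARNT.

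Of the 7 genes of this battery, 6 were measured, 5 rose and 1 fell, with a median log2 ratio of 2.65. *Ahrr*, the repressor that AhR induces against itself, had 126 counts at 0 h and 1708 at 24 h (log2 ratio 3.72, 3.46 to 3.99). *Tiparp*, another feedback gene, was at 41.7 and 124 CPM (1.57), and the quinone reductase *Nqo1*, which NRF2 also controls, at 113 and 310.2 CPM (1.45). *Aldh3a1*, an aldehyde dehydrogenase of the same battery, fell, from 86 counts to 13 (-2.77, -3.73 to -1.92), and *Cyp1a2* had 3 and 9 counts. The promoters of the 3 genes with the largest ratios are shown with GCGTG, or CACGC where it lies on the other strand, in capitals. They run from 250 bases before to 50 after the RefSeq start, 5′ to 3′ along each gene, at chr9:57697363-57697662 (*Cyp1a1*), chr17:79715012-79715311 (*Cyp1b1*) and chr13:74292282-74292581 (*Ahrr*).
Cyp1a1: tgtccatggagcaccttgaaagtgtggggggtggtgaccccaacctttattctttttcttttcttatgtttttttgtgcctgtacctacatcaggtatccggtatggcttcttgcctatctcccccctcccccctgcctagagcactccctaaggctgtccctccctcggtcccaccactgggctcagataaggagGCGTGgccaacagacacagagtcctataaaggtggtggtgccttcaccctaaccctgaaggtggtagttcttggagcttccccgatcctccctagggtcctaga
Cyp1b1: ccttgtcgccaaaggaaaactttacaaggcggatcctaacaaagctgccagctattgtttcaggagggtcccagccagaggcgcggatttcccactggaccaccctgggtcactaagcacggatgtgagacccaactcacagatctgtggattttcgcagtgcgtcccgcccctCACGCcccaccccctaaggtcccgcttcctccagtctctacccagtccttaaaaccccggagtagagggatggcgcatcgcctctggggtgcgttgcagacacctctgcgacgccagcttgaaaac
Ahrr: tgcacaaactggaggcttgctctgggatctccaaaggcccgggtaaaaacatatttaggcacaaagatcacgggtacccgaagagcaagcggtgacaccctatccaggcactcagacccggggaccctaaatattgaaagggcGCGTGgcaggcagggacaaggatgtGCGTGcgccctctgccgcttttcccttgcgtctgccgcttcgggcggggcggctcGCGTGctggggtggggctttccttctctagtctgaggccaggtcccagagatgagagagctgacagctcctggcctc

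*Cyp1a1* and *Cyp1b1* hold the core once in this window and *Ahrr* 3 times. It stood in 4 of 6 promoters found for the battery (66.7%), against 32.4% of all 32851 promoters, 50% of those of the naive factors, 4 of 15 promoters of the 15 named rises and 3 of 8 of the 15 named falls. Letters this short occur in many promoters, the distal AhR enhancers lie outside this window, and a match is a description of the sequence only. The octamer and the TEAD letters ACATTCC were in none of the 15 promoters of the named rises or the 8 of the named falls. They stand in 1.74% and 3.85% of all 32851 promoters, and for so few promoters none is near those shares.

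**Figure D3:**
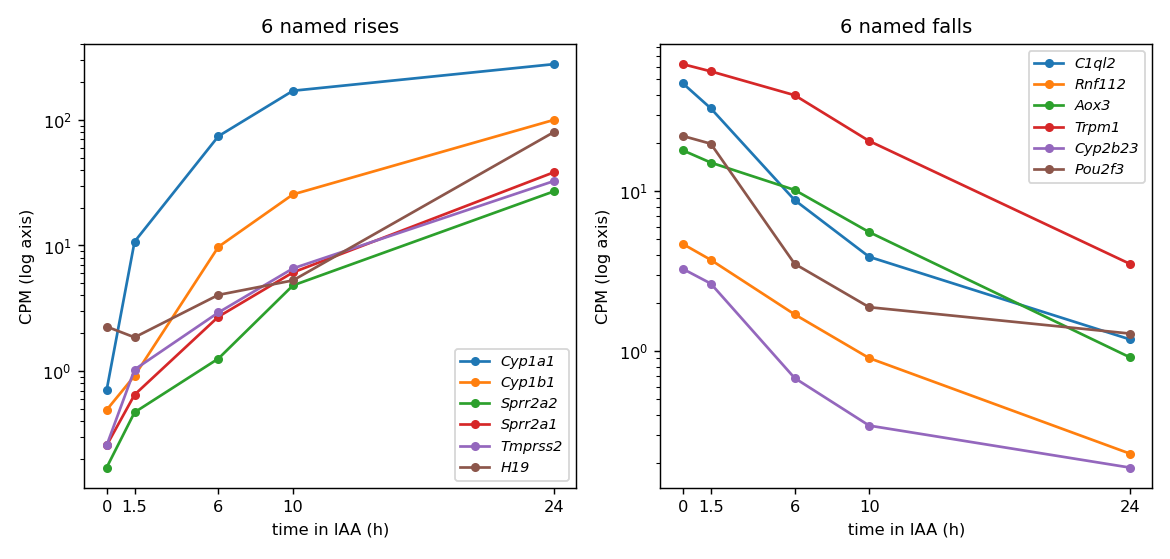
CPM (log axis) of 6 named rises (left) and 6 named falls (right) in the 5 O4AID libraries, against hours in IAA, 1 library a point. *Cyp1a1* climbs from 0.704 CPM at 0 h to 277 at 24 h with 10.7 already at 1.5 h, whereas *H19* stays between 1.86 and 5.27 CPM up to 10 h and reaches 79.8 at 24 h.

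The other named rises included epithelial, imprinted and secreted genes. *Sprr2a1* and *Sprr2a2*, small proline-rich proteins of the epidermal envelope, had 12 and 8 counts at 0 h and 1843 and 1299 at 24 h (log2 ratios 7.22 and 7.30). Their gene models overlap on chromosome 3 and are near-identical, so how the reads divide between them is uncertain. *Tmprss2*, a membrane serine protease, had 12 counts and 1569, a log2 ratio of 6.99 (6.18 to 7.95). *Frem2*, a basement membrane protein, had 77 and 2541 (5.00, 4.68 to 5.35), of which little was present at 10 h (6.96 CPM against 52.7 at 24 h). *C3*, the central complement protein, had 9 and 264 counts (4.83), with 0.195 CPM at 10 h and 5.48 at 24 h. The rest of the 15 were the amino acid transporter *Slc6a14* (4.96), the cytidine deaminase *Cda* (4.83), the protocadherin *Pcdh18* (4.81) and the kinase *Alpk1* (4.63), each with 4 or 5 counts at 0 h and 117 to 144 at 24 h.

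The named falls began at a wide range of levels, and the rule asks that some counts remain. *C1ql2* (ENSMUSG00000036907, chr1:120340582-120343174, plus strand), a secreted C1q-like protein of synapses, had 2212 counts at 0 h and 57 at 24 h, or 47.2 and 1.18 CPM. Its log2 ratio was -5.32 (-5.73 to -4.94), and it was at 33.0 CPM at 1.5 h, 8.79 at 6 h and 3.88 at 10 h. *Trpm1*, a cation channel of retina and melanocytes, had 2916 and 169 counts (log2 ratio -4.15, -4.38 to -3.93). *Aox3*, an aldehyde oxidase, had 843 and 44 (-4.30), and *Rnf112* had 219 and 11 (-4.36). *Pou2f3*, a POU factor of the same family as OCT4, had 1037 and 62 counts, or 22.1 and 1.29 CPM (-4.11, -4.50 to -3.73), and was at 3.51 CPM at 6 h. *Il10*, an anti-inflammatory cytokine, had 170 counts at 0 h and 14 at 24 h (-3.64), and its lowest values were at 6 and 10 h, 0.218 and 0.195 CPM against 0.290 at 24 h.

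Other falls by this rule were *Cyp2b23* (log2 ratio -4.13), *Mroh4* (-4.07), *Kctd16* (-3.87), *Enpp2* (autotaxin, 287 and 23 counts, -3.68), *Ffar3* (a fatty acid receptor, 895 and 75 counts, -3.62) and *Serpina3i* (-3.62). *Cyp2b23* and *Serpina3i* belong to families of close copies, where reads may be shared.

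Wnt target genes rose in cells that carried the GSK3 inhibitor at both times. Of 14, 13 were measured, 8 rose and 1 fell, with a median log2 ratio of 1.49. *Dkk1*, a secreted Wnt inhibitor, had 15 counts at 0 h and 366 at 24 h, a log2 ratio of 4.57 (3.83 to 5.42), and was at 0.122 CPM at 10 h, below its 0 h value of 0.320. *Lef1*, the Wnt-responsive partner of β-catenin, had 55 and 204 (1.85, 1.41 to 2.31). *Axin2*, the standard feedback target, was at 39.3, 55.2, 76.6, 92.0 and 132 CPM at 0, 1.5, 6, 10 and 24 h, a log2 ratio of 1.74 (1.67 to 1.82) between the ends. *Notum*, *Sp5*, *Nkd1*, *Rnf43* and *Tnfrsf19* rose by log2 ratios of 1.45 to 1.75. *Cdx1*, a homeobox gene that Wnt also controls, fell from 101 to 28.6 CPM (-1.82, -1.90 to -1.73), and *Ccnd1* was at 38.5 and 20.5 CPM (-0.91).

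ERK response genes were lower, again with the MEK inhibitor present at both times. Of 15, 13 were measured, 4 fell and none rose, and the median log2 ratio was -0.77. *Spry2*, a feedback inhibitor of receptor tyrosine kinases, had 2673 counts at 0 h and 491 at 24 h, or 57.1 and 10.2 CPM, a log2 ratio of -2.49 (-2.63 to -2.35), and was at 28.7 CPM at 1.5 h. *Etv5*, an ETS factor, was at 561 and 206 CPM (-1.44, -1.48 to -1.41). *Spry4* and the ERK phosphatase *Dusp6* fell by 1.71 and 1.33 on the log2 scale. *Fos* had 76 and 132 counts (0.76, 0.34 to 1.18).

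Genes of Nodal signalling, the TGF-β pathway of the epiblast, fell in 4 of 6 measured cases and rose in 1, with a median log2 ratio of -1.62, and 2 fell with a minimum of 100 counts. *Lefty2*, a Nodal inhibitor and target, had 91 counts at 0 h and 2 at 24 h, a log2 ratio of -5.55 with a wide interval of -8.62 to -3.65. *Lefty1* had 84 and 18 (-2.26, -3.09 to -1.52). The co-receptor *Tdgf1* was at 209.6 and 49.3 CPM (-2.09), with 66.3 at 6 h, and *Nodal* itself at 40.7 and 18.3 (-1.15).

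Among BMP and Id genes, 4 of 10 rose and 1 fell. The homeobox genes *Msx1* and *Msx2*, which BMP induces in many tissues, had 71 and 74 counts at 0 h and 362 and 257 at 24 h (log2 ratios 2.31 and 1.75). *Id1*, an inhibitor of bHLH factors, was at 1.07 CPM at 0 h, 1.20 at 10 h and 4.54 at 24 h, a log2 ratio of 2.09 (1.64 to 2.56). *Id3* had 28 and 12 counts (-1.26, -2.37 to -0.24). In the LIF pathway, which holds ESCs through STAT3, 1 of 9 genes fell, near the 6.19% of all genes for so short a list. It was the kinase *Pim1*, from 117 to 41.6 CPM (-1.49). *Socs3*, the STAT3 feedback gene, was at 89.5 and 122 CPM (0.45) and *Stat3* at 107 and 168 (0.65). Of 8 measured YAP-TEAD targets, 2 fell, *Ccn2* (*Ctgf*) from 390 counts to 101 (-1.99) and *Crim1* from 176 to 56 (-1.69), and *Ccn1* (*Cyr61*) was at 23.5 and 21.3 CPM (-0.14).

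Imprinted genes, expressed from 1 parental copy, held several of the largest rises. Of 26, 24 were measured, 8 rose and 1 fell, with a median log2 ratio of 0.47. *H19*, a maternally expressed non-coding RNA on chromosome 7, had 106 counts at 0 h and 3848 at 24 h, a log2 ratio of 5.14 (4.86 to 5.43). *Igf2*, the growth factor next to it that is expressed from the paternal copy, had 19 and 587 (4.91, 4.25 to 5.65), and was at 0.781 CPM at 10 h and 12.2 at 24 h. *Sgce*, which shares a promoter region with *Peg10*, was at 7.54 and 38.6 CPM (2.36), and the placental growth restrainer *Phlda2* had 87 and 388 counts (2.12). *Slc38a4*, an amino acid transporter of placenta and liver, had 18447 and 51784 counts, or 394 and 1074 CPM (1.45, 1.42 to 1.47), a large gain from a high start.

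*Airn* had 10 counts at 0 h and 111 at 24 h (log2 ratio 3.43, 2.50 to 4.53). It runs antisense through *Igf2r*, which was at 369.5 and 335 CPM, and since the strand setting of the counting is not given, reads of the overlapping parts may not be separated. *Zim1* had 31 and 83 counts (1.38). *Grb10*, an adaptor that dampens growth signals, was the one that fell, from 121 to 24.7 CPM (-2.29, -2.38 to -2.20), and was at 92.6 CPM at 10 h. Of the *Dlk1-Meg3* domain, *Meg3* was at 19.7 and 22.5 CPM (0.20) and *Rian* at 94.1 and 122 CPM (0.38).

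Glycolytic genes were lower as a group. Of 17, 5 fell and none rose, and the median log2 ratio was -0.65. In this list 16 intervals lay below 0, where 6080 of all 15890 genes had an interval below 0. *Pfkp*, a phosphofructokinase, was at 284 and 93.1 CPM (log2 ratio -1.61, -1.66 to -1.56) and *Hk2*, a hexokinase, at 378 and 133 (-1.50). *Ldha*, lactate dehydrogenase, was at 595 and 229.7 CPM (-1.37) and the lactate exporter *Slc16a3* at 41.9 and 17.8 (-1.24). *Eno1* was at 1108 and 542 CPM (-1.03, -1.05 to -1.01). The glucose transporter *Slc2a1* was at 182 CPM at 0 h, 382 at 10 h and 221 at 24 h (0.28). *Gapdh* and several others of the list have processed copies in the genome that may share reads.

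*Txnip*, which restrains glucose uptake and thioredoxin, was the third of the named gains in CPM. It had 8281 counts at 0 h and 38600 at 24 h, or 177 and 801 CPM, a log2 ratio of 2.18 (2.15 to 2.21). The cytosolic chaperone *Hsp90aa1* gave the largest named loss, from 8537 to 3428 CPM through 7629, 6254 and 5194 (-1.32, -1.32 to -1.31). Its constitutive paralogue *Hsp90ab1* was short of 2-fold at 5360 and 4083 CPM (-0.39), as was *Hspa8*, a constitutive chaperone of the HSP70 family, at 2871 and 1670 CPM (-0.78). *Malat1*, *Scd2* and *Eef1a1* were named by the same rule with log2 ratios of 0.44, 0.24 and -0.16. Of 19 cholesterol synthesis genes 1 rose and none fell, near the shares of all genes (8.45% and 6.19%). The list had a median of -0.10 that total-count scaling turned to 0.01.

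Cell cycle genes mostly stayed short of 2-fold. Over all genes 8.45% rose, and the 1 or 2 rises in each list below are near that share for lists so small. Of 7 cyclins 1 rose, *Ccnd2* (74 and 289 counts, log2 ratio 1.92, 1.55 to 2.31), while *Ccnd3* was at 276 and 155 CPM (-0.84), *Ccnb1* at 391 and 239.7 (-0.71) and *Ccna2* at 269 and 186 (-0.53). Of 7 CDK inhibitors 1 rose, *Cdkn2b* (121 and 257 counts, 1.05, 0.73 to 1.37), with *Cdkn1a* at 191 and 176 CPM (-0.12). Of 14 p53 targets, 2 rose, *Phlda3* (45.3 and 109.7 CPM, 1.28) and *Fas* (31 and 77 counts, 1.27, 0.65 to 1.92), with a list median of 0.53. *Mdm2*, the p53 feedback gene, was at 135 and 127 CPM (-0.10).

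Of the DNA methylation genes, the 2 that fell were oxidising enzymes of the TET family. *Tet2* went from 714 to 192 CPM and already stood at 185 in the 6 h library, a log2 ratio of -1.90 (-1.93 to -1.86). *Tet1* was at 536 and 221 CPM (-1.28, -1.31 to -1.25). *Tet3* was at 19.2 CPM in both libraries. The maintenance methyltransferase *Dnmt1* was at 540.4 and 413 CPM (-0.39) and its partner *Uhrf1* at 605 and 372 (-0.70). Of 10 measured genes of cadherins and mesenchymal transition, 4 rose and none fell, and 2 rose with a minimum of 100 counts. *Cdh1* (E-cadherin) was at 280.4 and 228 CPM (-0.30) and *Cdh2* (N-cadherin) had 17 and 26 counts, while *Cdh3* (P-cadherin), *Snai1*, *Zeb2* and *Vim* rose, by log2 ratios of 1.68, 1.48, 1.39 and 1.11.

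**Figure D4:**
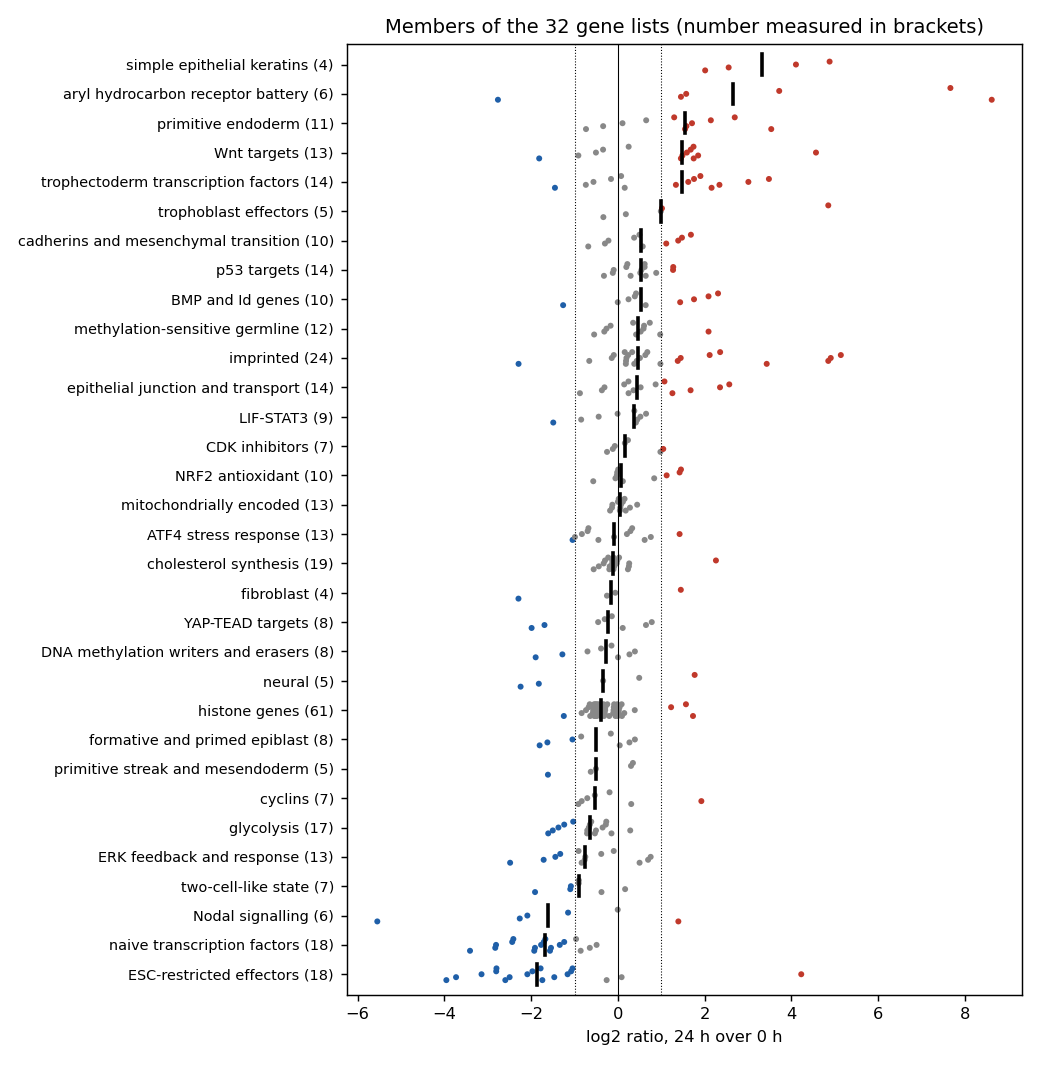
Log2 ratio of 24 h over 0 h for every measured member of the 32 gene lists, 1 point per gene (red at least 2-fold higher, blue at least 2-fold lower, grey between), with a black bar at each list's median and the number measured in brackets. The medians run from 3.33 for the simple epithelial keratins to -1.88 for the ESC-restricted effectors, against -0.02 for all genes.

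By chromosome, the share of genes that fell was 2.39% (chromosome 19) to 8.51% (chromosome 16), apart from chromosome 14, where 66 of 542 fell (12.2%). One end of the chromosome, chosen after these values were seen, held 20 of the 66. Of the 38 measured genes that start below 8 Mb on chromosome 14, 20 fell and none rose, with a median log2 ratio of -1.01. They include 36 *Gm* models, a family of near-identical copies at which the assignment of reads is uncertain. From 8 Mb on, 46 of 504 genes fell (9.13%). The share of genes that rose was 4.98% on chromosome 14 and 6.93% to 11.4% on the others.

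**Figure D5:**
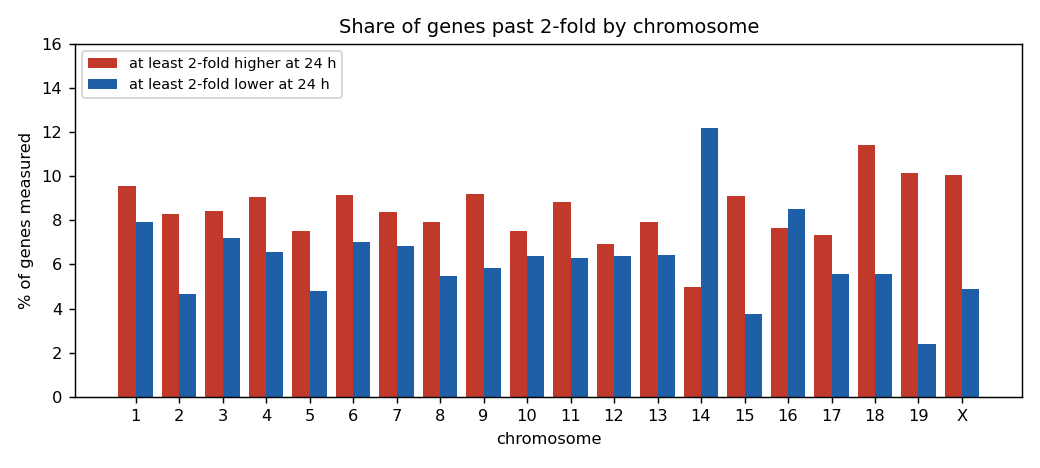
Share of measured genes (%) at least 2-fold higher (red) and at least 2-fold lower (blue) at 24 h on each chromosome, bars starting at 0. Chromosome 14 has the highest share of falls, at 12.2%, and the lowest share of rises, at 4.98%.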

How the data were processed

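RNA was sequenced from mouse O4AID ESCs, 1 library per time in IAA. The authors depleted ribosomal RNA, made directional paired-end libraries (NextFlex kit, HiSeq4000), trimmed reads with Trim Galore 0.1.4 and aligned them to GRCm38/mm10 with TopHat2 2.1.0, per the labels and methods. They counted reads per gene with featureCounts 1.5.1 on an Ensembl annotation, with strand and multimapping settings not given in the sources used here. The deposited files hold raw counts of reads per gene, which were whole numbers, in 48801 entries. The 92 spike-in entries were at 0 and were left out, and 48349 of the 48709 genes had a symbol. A deposited table of TMM-scaled values was not used.

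TMM factors over the 5 O4AID libraries were computed with edgeR 4.0.16 (R 4.3.3). All else was done in Python 3.11.15 (numpy 2.4.6, pandas 2.3.3, SciPy 1.17.1, matplotlib 3.10.9). Genes with a mean of at least 20 counts were used, a ratio of at least 2-fold was called, and each ratio had an exact conditional binomial (Clopper-Pearson) 95% interval. Reads carry no molecular identifiers, so intervals cover counting error only, and a count of 0 was set to 3 to give a bound. The NOISeq-sim method of the study was not run, since it simulates replicates. The script was tested on simulated data. Alternatives were 4 other scalings, 3 other count minimums, a pseudocount and a call on the whole interval.

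Named genes were *Pou5f1*, the 15 largest rises and 15 largest falls among genes with a symbol, a mean of at least 50 counts and more than 3 counts in the lower library (without pseudogenes, small RNA, *Gm* and *Rik* models), the 5 largest gains and losses in CPM among them, and up to 4 members of each of 32 lists with the largest ratios. The largest bounded rises and falls were also to be named, and no gene met that rule. Some genes that these rules name, or that list counts include, are not reported here. Other list members were named after their values were seen. The comparison, the lists and the rules were chosen with earlier results of these data known. Promoters were RefSeq sequences on GRCm38.p6, matched by symbol for 12 of the 15 rises, 7 of the 15 falls, 6 of 7 AhR genes and 13 of 18 naive factors.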

Additional observations from a re-analysis of the deposited data

How the results depend on the processing

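No paired analysis was possible because O4AID has 1 library at each time, and for the same reason no library could be left out. No value changed direction past 2-fold under any alternative, but for single genes none could have. The other scalings shift all ratios alike by a small amount, and 1 added to CPM keeps the sign. The other minimums and the whole-interval call were not applied to the ratios of single genes. The count minimum moved the totals most. With a mean of at least 5 counts 2281 genes were higher and 1773 lower, with at least 100 counts 725 and 533, and with no minimum beyond more than 3 counts in 1 library 2840 and 2393. With 1 added to CPM before the log, 679 were higher and 499 lower, and 771 and 551 had a whole interval past 2-fold. The other scalings left the totals within 1.5 times, at 1269 to 1582 higher and 820 to 1057 lower. *Pou5f1* was at -0.14 with total-count and -0.29 with upper-quartile scaling. List counts that moved by over 1.5 times were the following. With total-count scaling, ATF4 had 0 lower, CDK inhibitors 2 higher, two-cell genes 1 lower and germline genes 2 higher. With upper-quartile scaling, trophoblast effectors had 1 higher and ATF4 2 lower. With a mean of at least 5 counts, trophoblast effectors had 4 higher, neural genes 2 higher and histones 2 lower, and with no minimum these were 5, 3 and 2, with 2 fibroblast genes higher. With at least 100 counts, trophectoderm factors had 3 higher, p53 targets 1, histones 1 higher and 0 lower, cadherin genes 2 higher, Nodal genes 0 higher and 2 lower, two-cell genes 1 lower, fibroblast genes 0 either way, and streak, AhR and BMP genes 0 lower. With CPM plus 1, trophectoderm factors had 3 higher, formative genes 1 lower, trophoblast effectors 1 higher, p53 targets 1, cadherin genes 2, fibroblast, Nodal and CDK inhibitor genes 0 higher, two-cell genes 1 lower, and streak, BMP and histone genes 0 lower. With the whole interval past 2-fold, formative and two-cell genes had 1 lower, trophoblast effectors and p53 targets 1 higher, cadherin genes 2 higher, fibroblast, Nodal and CDK inhibitor genes 0 higher, and ATF4, BMP and histone genes 0 lower. Another minimum changed which genes were tested, and the other settings used the same 15890 genes, where the cause was not tested. Other list counts were within 1.5 times. Low genes such as *Hand1*, *Gcm1* and *Dlx3* carry wide intervals that depth alone sets, and no alternative stands in for replicates.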

Other observations

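Genes of the two-cell-like state, which a small share of ESCs enters, were lower at 24 h. Of 8, 7 were measured, 3 fell and none rose, with a median log2 ratio of -0.90, and 1 fell with total-count scaling. *Zfp352* had 106 counts at 0 h and 29 at 24 h (log2 ratio -1.91, -2.56 to -1.31), *Zscan4f* had 564 and 271 (-1.10) and *Tcstv3* had 68 and 33 (-1.08). The *Zscan4* genes are near-identical copies at which reads may be shared, and the 3 measured, *Zscan4c*, *Zscan4d* and *Zscan4f*, were highest at 6 h, where *Zscan4c* reached 32.4 CPM from 26.5 before IAA, and 14.1 followed by 24 h.

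Of 12 germline genes that DNA methylation is known to silence 1 rose, a share near the 8.45% of all genes. It was *Taf7l*, from 147 counts to 644 (log2 ratio 2.09, 1.83 to 2.36), with *Slc25a31* next at 356 and 720 counts (0.97). *Dazl*, which ESCs express, was at 120.3 and 107 CPM (-0.17). Of 10 NRF2 antioxidant genes 3 rose, *Nqo1*, the cystine transporter *Slc7a11* (165 and 455 counts, 1.42) and *Srxn1* (81.6 and 178 CPM, 1.12), and 4 of the other 7, *Hmox1*, *Gclc*, *Gclm* and *Txnrd1*, lay between -0.06 and 0.01. Of 13 genes of the ATF4 stress response 1 rose and 1 fell, near the shares of all genes (8.45% and 6.19%). *Slc7a11* rose and the serine synthesis gene *Phgdh* fell, from 199 to 96.3 CPM (-1.05, -1.10 to -0.99), with *Asns* at 907 and 456 CPM (-0.99) and *Psat1* at 533 and 299.5 CPM (-0.83), and the list median of -0.09 turned to 0.02 with total-count scaling.

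Histone genes, taken by symbol (*Hist1h*, *Hist2h*, *Hist3h* and *Hist4h*), were lower by a small amount. Of 68, 61 were measured, 44 intervals lay below 0 and 5 above, and the median log2 ratio was -0.38. Over all 15890 genes, 6080 intervals lay below 0 and 5517 above. By the 2-fold rule 3 histone genes rose and 1 fell, where 8.45% of all genes rose and 6.19% fell. *Hist1h2aa* had 36 and 123 counts (1.73), *Hist3h2ba* had 152 and 464 (1.57) and *Hist1h2ab* had 30 and 13 (-1.25). The other that rose, *Hist3h2bb-ps* (27 and 65 counts, 1.23), is a processed pseudogene. Reads may be shared between these close copies. None of the 13 mitochondrially encoded mRNAs rose or fell, with log2 ratios from -0.18 (*mt-Nd6*) to 0.44 (*mt-Atp6*).

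*Nkx1-2*, a homeobox gene, had the lowest log2 ratio of all genes used, with 213 counts at 0 h and 3 at 24 h (-6.19). It was chosen after its value was seen, since the naming rule asks for more than 3 counts.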
